A study of Mus musculus with 46 samples.

Results

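Cholesterol and fatty acids are made by 2 branches of lipid synthesis that share acetyl-CoA as a building block, and this account follows 31 genes of these branches and of their SREBP regulators through mouse liver tumours driven by Myc. The members were taken by their symbols from a table of 21671 genes: 17 genes of the sterol arm, 11 genes of the fatty acid arm and the 3 regulator genes Srebf1, Srebf2 and Insig1. All 31 symbols were present, and 30 genes could be tested. Hmgcs1, which encodes the synthase that makes HMG-CoA, was listed at or near 0 in every library, with a highest value of 0.079 eRPKM, and its expression was not analysed further.

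All animals were of the FVB strain. Myc-off tumours carried the transgene tet-Myc with LAP-tTA and came from animals given doxycycline in the food for 16 h, which shuts the transgene off. MycVD tumours carried tet-MycVD with LAP-tTA, in which Myc has the V394D substitution, a change described as impairing the contact between Myc and the transcription factor Miz1; this transgene was on. Myc tumours carried tet-Myc with LAP-tTA and the transgene was on. Control liver was normal liver, and the labels name no transgene and no treatment for it. LAP-tTA is a transactivator restricted to liver, and it turned the transgenes on before birth, so the tumours arose in livers that carried the oncogene from fetal life. The labels state no ages.

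Each library was made from total RNA depleted of ribosomal RNA, and expression was given as exonic RPKM (eRPKM), the reads in the exons of a gene scaled by exon length and library depth. Tumours that share an animal ID were averaged, which left 3 Myc-off IDs (8 libraries), 10 MycVD IDs (11 libraries), 7 Myc IDs (16 libraries) and 11 control IDs (11 libraries). That 1 ID is 1 animal is an assumption. Depth, recovered from the values, was 3.25 to 10.4 M reads per library in Myc-off tumours, 6.18 to 10.6 in MycVD tumours, 7.27 to 12.6 in Myc tumours and 5.63 to 8.95 in control liver. The highest number of reads per kilobase lay between 1461 and 2182 in every library. It was taken as a ceiling that would compress abundant genes. This is an inference from the values, since removal of duplicate reads is not stated. The correction used below assumes at most 2000 read starts per kilobase, and control ID125322 exceeded this, at 2182. Among the members, Scd1, Thrsp, Insig1 and Fasn in control liver and Scd2 in tumours came near the range of these maxima. No doxycycline-fed control liver is among the groups, so an effect of doxycycline and the switch-off cannot be told apart. The Myc-off and MycVD IDs are all numbered above the Myc IDs, so a date or batch and these groups cannot be told apart either.

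Liver cells make cholesterol from acetyl-CoA through mevalonate, squalene and lanosterol, and they make fatty acids from the same acetyl-CoA through malonyl-CoA. Both branches are switched on by the SREBP transcription factors, of which the Srebf2 product acts mainly on sterol genes and the liver form of the Srebf1 product mainly on fatty acid genes. INSIG proteins hold the SREBPs back in the endoplasmic reticulum when sterols are plentiful, and Insig1 is itself an SREBP target, so its mRNA is often read as a gauge of this loop. In normal liver the fatty acid genes also follow feeding, insulin and glucose.

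The tissue labels were checked against fixed marker genes. The summed eRPKM of 7 hepatocyte markers had a median of 852 (range 833 to 906) in Myc-off tumours, 596 (519.7 to 745) in MycVD tumours, 450.5 (395 to 613) in Myc tumours and 1209 (738 to 1270.2) in control liver. Hepatocyte transcripts were thus present in every group and differed between groups. In bulk tissue, fewer hepatocytes and less RNA per hepatocyte cannot be told apart. The summed eRPKM of 5 markers of dividing cells had a median of 136 in Myc-off tumours, 352 in MycVD tumours, 329 in Myc tumours and 5.47 in control liver. The row of the Myc gene itself averaged 5.98 ± 2.72 eRPKM in Myc-off tumours, 6.36 ± 2.37 in MycVD tumours, 7.75 ± 1.69 in Myc tumours and 6.35 ± 5.10 in control liver (SD over IDs). The labels do not say whether this row counts transgene reads, so it does not check them.

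**Figure D1:**
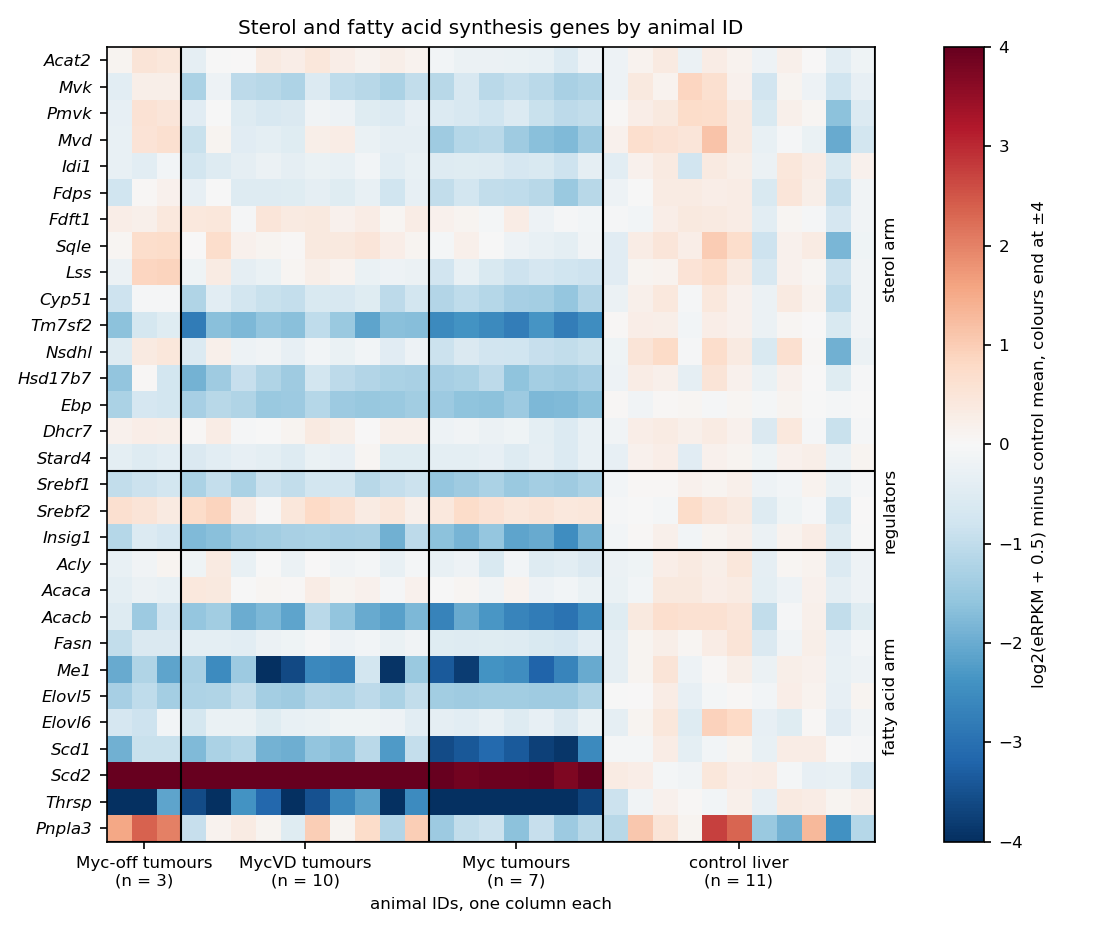
Each of the 30 tested members (rows) in each animal ID (columns), as log2(eRPKM + 0.5) minus the mean of the control IDs; red is higher and blue is lower, and colours end at ±4. The 7 Myc IDs are blue across most of the sterol arm, Scd2 is red in every tumour, and Thrsp is the deepest blue of the fatty acid arm.

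Myc tumours were set against control liver to describe both branches in an established tumour. Nearly all of the sterol arm was lower in Myc tumours: of 16 tested members 14 fell, 0 rose and 2 did not pass the threshold, an adjusted p under 0.05 in limma's test over all genes. The median log2 difference of the arm was -0.80, where the median over all tested genes was 0.28. Of 14566 tested genes 80.0% passed the threshold in this comparison, 50.4% as higher and 29.7% as lower, so a call alone is the usual case here. Hepatocyte markers moved the same way, with 7 of 7 lower in Myc tumours and a median log2 difference of -1.02. Sinusoidal endothelial markers were lower in 5 of 5 cases, with a summed median of 20.7 eRPKM (range 13.97 to 34.7) in Myc tumours and 142 eRPKM (119.999 to 222) in control liver. Stellate and fibroblast markers were lower in 3 of 5 cases and higher in 1, Kupffer cell and bile duct markers were each lower in 2 of 5, and erythroid and dividing cell markers were each higher in 5 of 5. The summed adipocyte markers had a median of 44.6 eRPKM (32.4 to 56.9) in Myc tumours and 8.27 eRPKM (5.33 to 23.1) in control liver; of these 5 genes Fabp4 alone could be tested and was higher (2.11), while Adipoq, Plin1 and Lep were under 1 eRPKM in every ID of all 4 groups. The part of these cells in the results of this comparison was not tested. Under median-ratio scaling the median over all genes moved to 0.05 and that of the arm to -1.05, again with 14 lower members; 52.2% of all calls were then higher, against 62.9% in the unscaled fit. With quantile normalisation 11 members were lower.

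Tm7sf2 and Ebp, of the steps from lanosterol to cholesterol, had the largest differences of this arm. Tm7sf2, which encodes the sterol C14 reductase, was at 6.64, 7.95 and 8.96 eRPKM (lowest, median, highest) in Myc tumours, against 31.6, 49.7 and 58.6 eRPKM in control liver. The IDs of the groups did not overlap, and the difference was -2.56 ± 0.17 (log2, SE, adjusted p = 5.2e-15), a 5.88-fold lower level. Ebp, which encodes the sterol isomerase known as emopamil binding protein, was at 22.0, 24.9 and 28.2 eRPKM in Myc tumours, against 70.2, 77.9 and 83.8 eRPKM in control liver. It did not overlap either and fell by 1.63 ± 0.07 (adjusted p = 4.8e-19), with the smallest relative spread of any tested member in control liver (5.37% of the mean). Of the sterol arm 3 of 16 members were lower without overlap, as were 18.7% of all tested genes. Hsd17b7, the gene of a 3-keto-sterol reductase, was the remaining one, at 13.3, 16.3 and 19.9 eRPKM in Myc tumours, against 29.3, 41.7 and 60.0 eRPKM in control liver (-1.33 ± 0.16, adjusted p = 9.9e-09). Part of the exons of Tm7sf2 (12.1%) overlaps Vps51 on the same strand in the GENCODE M21 annotation, and the labels do not say how shared reads were counted.

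Cyp51, which encodes the lanosterol demethylase, and Nsdhl, which encodes a sterol dehydrogenase, also fell, by 1.24 ± 0.15 (adjusted p = 9.1e-09) and by 0.83 ± 0.23 (adjusted p = 0.0019), with overlapping IDs. Dhcr7, the gene of the last reductase of the pathway, was lower by a small margin, -0.28 ± 0.13 (adjusted p = 0.04). That call was lost without any of 9 single animals, without the filter on low values, with quantile normalisation (-0.18) and with a correction for the read ceiling. Of the mevalonate steps, Mvd had the largest difference. Mvd, the gene of mevalonate diphosphate decarboxylase, was at 7.48, 9.55 and 12.2 eRPKM in Myc tumours, against 6.19, 29.8 and 59.7 eRPKM in control liver, a difference of -1.42 ± 0.27 (adjusted p = 1.9e-05). The control IDs spread over a wide range and 1 of them lay below all Myc IDs. With depth as a covariate the difference was -2.09.

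Mvk, the mevalonate kinase gene, and Fdps, the farnesyl diphosphate synthase gene, each differed by -1.05, with adjusted p = 7.6e-06 and 4.6e-07. Of the exons of Fdps, 26.7% overlap Gm43738 on the same strand in GENCODE M21, a gene without a row in the deposited values. Pmvk, the phosphomevalonate kinase gene, fell by 0.78 ± 0.21 (adjusted p = 0.0015), Lss, the lanosterol synthase gene, by 0.69 ± 0.17 (adjusted p = 0.0007) and Idi1, the isopentenyl diphosphate isomerase gene, by 0.57 ± 0.13 (adjusted p = 0.00034). Stard4, whose product carries sterols between membranes, fell by 0.40 ± 0.09 (adjusted p = 0.00016), and Acat2, which encodes the cytosolic thiolase at the entry of the arm, by 0.26 ± 0.10 (adjusted p = 0.021). With quantile normalisation Idi1 (-0.24) and Stard4 (-0.11) no longer passed, and Acat2 did not pass with depth as a covariate or without Myc ID128285 (adjusted p = 0.062).

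Sqle and Fdft1, of the squalene steps, were the tested members of the arm that did not pass. Whether they differed from the rest of the arm was not tested. Sqle, the gene of squalene epoxidase, was at 31.2, 37.0 and 47.2 eRPKM in Myc tumours and 11.2, 49.1 and 82.8 eRPKM in control liver, with all Myc IDs inside the control range (-0.13 ± 0.24, adjusted p = 0.63; 95% interval -0.61 to 0.35). Fdft1, the squalene synthase gene, averaged 32.4 ± 4.13 eRPKM in Myc tumours and 32.5 ± 7.09 eRPKM in control liver (0.02 ± 0.11, adjusted p = 0.87; 95% interval -0.21 to 0.25). Of its exons, 18.3% overlap Ctsb on the opposite strand, and these libraries carry no strand information. The Sqle difference ran from -0.51 to -0.07 under the other alternatives and from -0.31 to -0.02 with single animals left out.

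Among the regulators, 2 fell and 1 rose. Insig1 was at 26.5, 40.7 and 51.3 eRPKM in Myc tumours, against 106, 157 and 186 eRPKM in control liver. The IDs did not overlap, and the difference was -1.94 ± 0.12 (adjusted p = 4.5e-15). Srebf1 was at 42.1, 46.4 and 52.0 eRPKM in Myc tumours, against 104, 128 and 145 eRPKM in control liver, again without overlap (-1.40 ± 0.08, adjusted p = 7.4e-17). The table gives 1 value per gene, so the transcript forms of Srebf1 were not separated. Srebf2 moved the other way, at 28.9, 29.6 and 36.4 eRPKM in Myc tumours against 12.8, 21.1 and 36.5 eRPKM in control liver (0.51 ± 0.14, adjusted p = 0.0017), with overlap. This rise did not pass with median-ratio scaling (0.26, adjusted p = 0.08) or with depth as a covariate (0.21, adjusted p = 0.3).

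In the fatty acid arm 9 of 11 members fell, 1 rose and 1 did not pass, with a median log2 difference of -1.21. Of the 9 that fell, 5 did not overlap between groups, a state that 18.7% of all tested genes reached in this direction and 35.1% in the other. Thrsp, whose product Spot 14 promotes lipid synthesis in liver, fell furthest: 3.01, 4.81 and 14.3 eRPKM in Myc tumours, against 106, 208 and 244 eRPKM in control liver. The difference was -4.98 ± 0.37 (adjusted p = 1.5e-13), a 31.6-fold lower level, and -5.71 with the correction for the read ceiling. Scd1, the stearoyl-CoA desaturase gene of adult liver, was at 12.7, 18.4 and 33.2 eRPKM in Myc tumours, against 150.4, 189 and 243 eRPKM in control liver (-3.37 ± 0.18, adjusted p = 4.6e-17; -4.06 with the ceiling correction).

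Its neighbour in the desaturase family did the reverse. Scd2, the isoform known from brain and from fetal liver, was at 82.8, 94.6 and 112 eRPKM in Myc tumours, against 3.45, 5.49 and 8.01 eRPKM in control liver. It was the only member of either arm that rose in this comparison, by 3.94 ± 0.11 (adjusted p = 7.6e-24), or 15.3-fold. Scd2 therefore made up 83.5% ± 3.56 of the summed eRPKM of both desaturases in Myc tumours (SD, n = 7) and 2.99% ± 0.945 in control liver (n = 11). The genes are similar in sequence, and the labels do not say how reads that match both were assigned.

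Me1, the gene of the malic enzyme that supplies NADPH, was at 4.12, 9.66 and 15.3 eRPKM in Myc tumours, against 49.2, 66.0 and 90.0 eRPKM in control liver (-2.84 ± 0.37, adjusted p = 4e-08). The acetyl-CoA carboxylase genes separated: Acacb, of the mitochondrial form known for limiting fatty acid oxidation, was at 2.89, 3.64 and 5.99996 eRPKM in Myc tumours, against 12.7, 29.1 and 40.7 eRPKM in control liver (-2.56 ± 0.22, adjusted p = 4.5e-12). Acaca, of the cytosolic form that feeds synthesis, averaged 39.1 ± 4.18 eRPKM in Myc tumours and 41.8 ± 9.14 eRPKM in control liver (-0.07 ± 0.11, adjusted p = 0.53; 95% interval -0.29 to 0.14). With median-ratio scaling Acaca passed as lower, at -0.32 (adjusted p = 0.007).

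The core synthesis enzymes fell little. Fasn, the fatty acid synthase gene, was at 79.4, 89.5 and 95.9 eRPKM in Myc tumours and 84.5, 134 and 184 eRPKM in control liver, with overlap (-0.52 ± 0.11, adjusted p = 5.3e-05). Acly, the ATP citrate lyase gene that makes acetyl-CoA for both branches, differed by -0.39 ± 0.12 (adjusted p = 0.0031). Both calls were lost with quantile normalisation, at -0.03 and -0.07. The elongase gene Elovl5, which acts on polyunsaturated fatty acids, fell by 1.37 ± 0.08 without overlap (adjusted p = 5.7e-16), and Elovl6, which extends palmitate, by 0.39 ± 0.16 (adjusted p = 0.026), a call lost with quantile normalisation (-0.22), with the ceiling correction (adjusted p = 0.059) and without Myc ID128285, control ID128993 or control ID128994 (adjusted p = 0.052 to 0.054). Pnpla3, which encodes a lipid droplet protein, was at 1.20, 1.93 and 2.38 eRPKM in Myc tumours and 0.478, 5.16 and 34.8 eRPKM in control liver (-1.21 ± 0.53, adjusted p = 0.038). Its control IDs ran over the widest relative range of the tested members, and the call was lost without any of 8 single animals, at adjusted p of up to 0.077, and without the filter on low values (adjusted p = 0.06). With depth as a covariate the difference was -2.14.

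**Figure D2:**
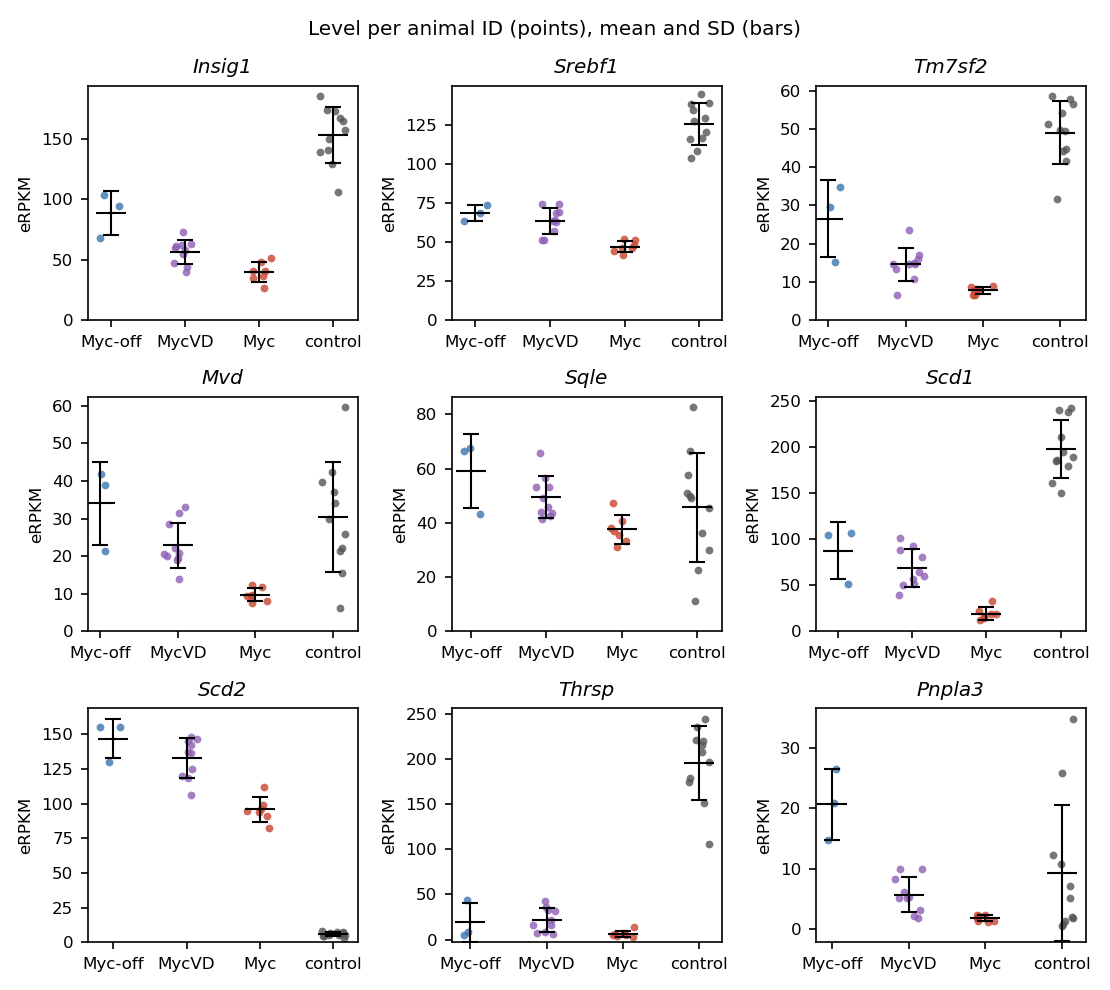
Level in eRPKM of 9 members in Myc-off, MycVD and Myc tumours and in control liver; points are animal IDs and bars are the mean and SD. Insig1, Srebf1, Tm7sf2, Scd1 and Thrsp are lowest in Myc tumours, and Scd2 is near the baseline only in control liver.

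Myc-off tumours were set against Myc tumours to see which members moved within 16 h of switch-off. In the sterol arm 12 of 16 tested members rose and 0 fell, with a median log2 difference of 0.80 where the median over all genes was 0.00. Of all tested genes 50.7% passed the threshold, 22.8% as higher and 28.0% as lower. In 10 members the Myc-off IDs lay above all Myc IDs, as they did in 19.6% of tested genes, while they lay below in 25.9%. Hepatocyte markers moved the same way, with 6 of 7 higher in Myc-off tumours and a median log2 difference of 0.99. So did 5 of 5 bile duct markers, with a median of 3.01. Their part in the result was not tested. Summed bile duct markers had a median of 105 eRPKM (range 32.9 to 134) in Myc-off tumours and 16.6 eRPKM (9.67 to 30.7) in Myc tumours. Sinusoidal endothelial markers were higher in 2 of 5 cases, and 4 of 5 markers of dividing cells were lower.

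Mvd rose most, at 21.4, 39.0 and 41.8 eRPKM in Myc-off animals ID150584, ID151964 and ID153344, against 7.48, 9.55 and 12.2 eRPKM (lowest, median, highest) in Myc tumours. All 3 values were above all Myc values, and the difference was 1.71 ± 0.39 (adjusted p = 0.00041), a 3.28-fold higher level; with depth as a covariate it was 2.39. Tm7sf2 followed, at 15.3, 29.6 and 34.7 eRPKM in the same Myc-off IDs, against 6.64, 7.95 and 8.96 eRPKM in Myc tumours (1.62 ± 0.24, adjusted p = 1e-06). Lss was at 28.9, 61.5 and 63.1 eRPKM in Myc-off tumours and at 18.9, 19.7 and 27.2 eRPKM in Myc tumours (1.19 ± 0.25, adjusted p = 0.00018), also without overlap.

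ID150584 was the lowest Myc-off animal in 13 of 16 tested members of the arm. Mvk (12.4, 20.01 and 19.8 eRPKM in the 3 Myc-off IDs), Cyp51 (32.7, 56.7 and 55.6) and Fdps (56.6, 102 and 110) had it lowest too. They rose by 1.06 ± 0.27 (adjusted p = 0.0013), 0.94 ± 0.22 (adjusted p = 0.00055) and 0.87 ± 0.23 (adjusted p = 0.0019). The shallowest library of the study, at 3.25 M reads, belonged to ID150584. Leaving that library out, an alternative chosen after seeing the data, gave 12 higher members as before.

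Ebp rose by 0.73 ± 0.10 (adjusted p = 6.2e-07) and Acat2 by 0.63 ± 0.15 (adjusted p = 0.00069), both without overlap. For 4 further members the call rested on single animals. Pmvk rose by 1.02 ± 0.31 (adjusted p = 0.0061) and was at adjusted p = 0.053 without Myc-off ID151964. Nsdhl rose by 0.93 ± 0.33 (adjusted p = 0.021) and Dhcr7 by 0.50 ± 0.18 (adjusted p = 0.02). Without Myc-off ID151964 or ID153344 these were at adjusted p = 0.1 and 0.12 for Nsdhl, and at 0.071 and 0.058 for Dhcr7. Hsd17b7 was at 13.4, 43.1 and 25.0 eRPKM in the 3 Myc-off IDs and at 13.3, 16.3 and 19.9 eRPKM in Myc tumours. Its difference of 0.58 ± 0.23 (adjusted p = 0.039) was 0.17 (adjusted p = 0.59) without ID151964 and 0.56 (adjusted p = 0.1) without ID153344. The call was also lost without any of 3 single Myc IDs and without the filter on low values (adjusted p = 0.061).

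The members that did not pass were Sqle (0.63 ± 0.34, adjusted p = 0.12), Idi1 (0.30 ± 0.19, adjusted p = 0.2), Fdft1 (0.27 ± 0.16, adjusted p = 0.17) and Stard4 (-0.04 ± 0.13, adjusted p = 0.8). With depth as a covariate Sqle passed as higher (1.02, adjusted p = 0.032). For Sqle the fit shares its spread with control IDs that ran from 11.2 to 82.8 eRPKM. Stard4 was at 50.7 ± 2.38 eRPKM in Myc-off tumours and 52.3 ± 3.37 eRPKM in Myc tumours. Its 95% interval ran from -0.31 to 0.22.

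The regulators that were low in Myc tumours rose. Insig1 was at 68.2, 103 and 94.6 eRPKM in Myc-off animals ID150584, ID151964 and ID153344, against 26.5, 40.7 and 51.3 eRPKM (lowest, median, highest) in Myc tumours, without overlap (1.15 ± 0.18, adjusted p = 2.9e-06). Srebf1 was at 63.2, 68.6 and 74.0 eRPKM in the same Myc-off IDs, against 42.1, 46.4 and 52.0 eRPKM in Myc tumours, again without overlap (0.54 ± 0.11, adjusted p = 0.00012). Srebf2 stayed at 31.2 ± 3.06 eRPKM in Myc-off tumours and 31.1 ± 2.67 eRPKM in Myc tumours (0.00 ± 0.20, adjusted p = 0.99; 95% interval -0.41 to 0.42).

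The fatty acid arm split into 4 members that rose and 7 that did not pass, with 0 falls and a median log2 difference of 0.61. Pnpla3 had the largest rise, at 14.8, 26.5 and 20.9 eRPKM in Myc-off animals ID150584, ID151964 and ID153344, against 1.20, 1.93 and 2.38 eRPKM in Myc tumours (3.17 ± 0.75, adjusted p = 0.00075; 4.12 with depth as a covariate). Scd1 was at 51.8, 106 and 104 eRPKM in the same Myc-off IDs, against 12.7, 18.4 and 33.2 eRPKM in Myc tumours, a 4.40-fold higher level (2.14 ± 0.26, adjusted p = 3.7e-08). Neither gene overlapped between the groups.

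Acacb rose by 1.65 ± 0.31 (adjusted p = 5.4e-05), to 17.8, 8.91 and 14.9 eRPKM in the 3 Myc-off IDs. Within ID153344 its tumours were at 6.55, 9.69 and 28.6 eRPKM, so tumours of 1 animal differed widely. Scd2, already high, was at 155, 130.4 and 155 eRPKM in the Myc-off IDs, against 82.8, 94.6 and 112 eRPKM in Myc tumours (0.61 ± 0.16, adjusted p = 0.002). Both desaturase genes were thus higher in Myc-off tumours, and the Scd2 share of their sum was 63.3% ± 10.4 in Myc-off tumours (n = 3) and 83.5% ± 3.56 in Myc tumours (n = 7).

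The enzymes that build palmitate did not pass in this comparison. Fasn was at 64.5, 84.6 and 85.7 eRPKM in the Myc-off IDs, against 79.4, 89.5 and 95.9 eRPKM in Myc tumours (-0.19 ± 0.15, adjusted p = 0.32; 95% interval -0.50 to 0.12). Acaca was at -0.23 ± 0.15 (adjusted p = 0.21), Acly at 0.29 ± 0.17 (adjusted p = 0.15), Elovl6 at -0.15 ± 0.23 (adjusted p = 0.62) and Elovl5 at 0.13 ± 0.12 (adjusted p = 0.36). Acly passed as higher without the libraries with low Gapdh (0.38, adjusted p = 0.029). Me1 was at 1.06 ± 0.53 (adjusted p = 0.097), and passed with quantile normalisation (1.27, adjusted p = 0.041). Thrsp was at 7.86, 4.89 and 44.3 eRPKM in the 3 Myc-off IDs, against 3.01, 4.81 and 14.3 eRPKM in Myc tumours, and the difference of 1.06 ± 0.53 (adjusted p = 0.097) was 0.15 without ID153344 and passed without ID151964 (1.67, adjusted p = 0.021). With quantile normalisation 5 members of this arm were higher and Fasn was lower (-0.41, adjusted p = 0.039), with a median of 0.28. With every tumour counted as its own sample 6 members were higher and 2, Fasn and Acaca, were lower; such p-values treat tumours of 1 animal as independent.

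**Figure D3:**
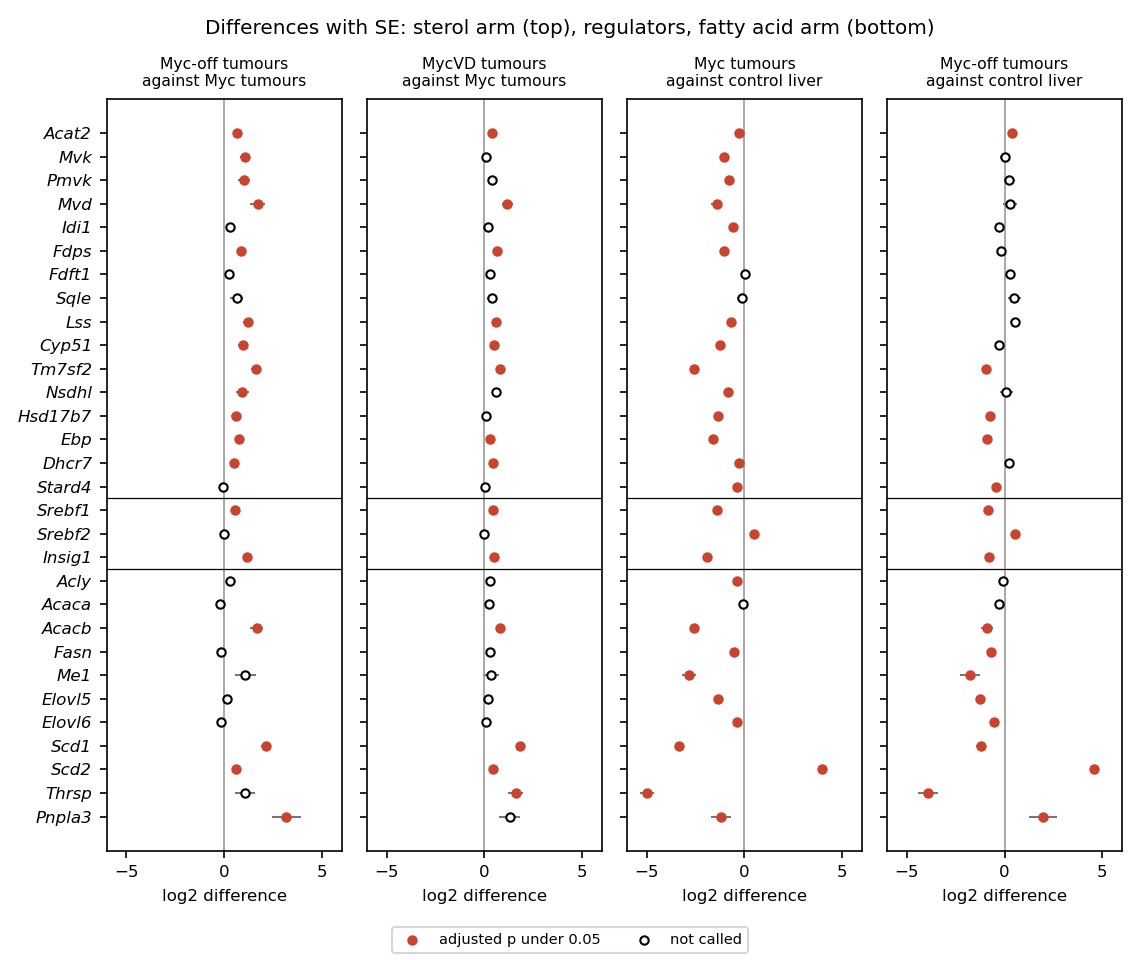
Log2 difference of each tested member with its SE in the 4 comparisons; filled points passed an adjusted p of 0.05 (limma, over all genes) and open points did not. Most sterol arm points are right of 0 for Myc-off against Myc tumours, left of 0 for Myc tumours against control liver, and spread around 0 for Myc-off tumours against control liver.

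MycVD tumours were set against Myc tumours to see which members differ with the V394D substitution. The comparison uses the same Myc tumours as the one before. Of 16 tested sterol arm members 8 were higher and 0 lower, with a median log2 difference of 0.40 where the median over all genes was -0.05. Of all tested genes 15.8% passed the threshold here, 6.14% as higher and 9.69% as lower. Under median-ratio scaling 55.6% of all calls were higher, against 38.8% in the unscaled fit, and 8 members of the arm were again higher. With depth as a covariate 588 of all tested genes were higher and 371 lower, against 895 and 1411 without it. Median depth was 7.81 M reads per library in MycVD tumours and 9.65 M in Myc tumours. Hepatocyte markers were higher in 4 of 7 cases, with a median log2 difference of 0.34. Bile duct markers were higher in 1 of 5 cases, while Kupffer cell markers were lower in 2 of 5 and sinusoidal endothelial markers in 1 of 5. Their part in the result was not tested.

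Mvd again differed most, at 14.1, 20.7 and 33.0 eRPKM (lowest, median, highest) in MycVD tumours, against 7.48, 9.55 and 12.2 eRPKM in Myc tumours. The IDs did not overlap, a state that 0.783% of tested genes reached in this direction and 1.32% in the other, and the difference was 1.17 ± 0.27 (adjusted p = 0.0041). Dhcr7 did not overlap either, at 45.9, 52.3 and 60.7 eRPKM in MycVD tumours and 32.3, 39.8 and 42.5 eRPKM in Myc tumours (0.42 ± 0.13, adjusted p = 0.024), although its call was lost without Myc ID130395 or ID128285 (adjusted p = 0.056 and 0.062). Nsdhl was at 21.0, 26.7 and 35.9 eRPKM in MycVD tumours, against 15.4, 17.0 and 20.8 eRPKM in Myc tumours, without overlap but also without passing (0.61 ± 0.24, adjusted p = 0.077). For this gene the fit shares its spread with control IDs that ran from 7.84 to 53.2 eRPKM.

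Tm7sf2 was higher in MycVD tumours by 0.81 ± 0.17 (adjusted p = 0.0014), Fdps by 0.64 ± 0.16 (adjusted p = 0.0068), Lss by 0.61 ± 0.18 (adjusted p = 0.018) and Cyp51 by 0.47 ± 0.15 (adjusted p = 0.035). Acat2 was higher by 0.41 ± 0.11 (adjusted p = 0.0077) and Ebp by 0.27 ± 0.07 (adjusted p = 0.013). The Cyp51 call was lost without any of 7 single animals, and that of Acat2 with depth as a covariate (adjusted p = 0.061). The remaining members did not pass: Sqle (0.39), Pmvk (0.39), Fdft1 (0.27), Idi1 (0.21), Hsd17b7 (0.09), Mvk (0.08) and Stard4 (0.03), on the log2 scale. Nsdhl passed with quantile normalisation (0.71, adjusted p = 0.019), and Fdft1 without the libraries with low Gapdh (0.32, adjusted p = 0.041).

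Srebf1 was higher in MycVD tumours, at 51.3, 63.8 and 74.3 eRPKM against 42.1, 46.4 and 52.0 eRPKM in Myc tumours, with a small overlap (0.42 ± 0.08, adjusted p = 0.00034). Insig1 was higher by 0.50 ± 0.13 (adjusted p = 0.0075), a call lost with depth as a covariate (0.45, adjusted p = 0.069). Srebf2 was at 30.8 ± 5.92 eRPKM in MycVD tumours and 31.1 ± 2.67 eRPKM in Myc tumours (-0.03 ± 0.14, adjusted p = 0.91; 95% interval -0.33 to 0.26).

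In the fatty acid arm 4 of 11 members were higher, 0 lower and 7 did not pass. Scd1 was at 39.9, 62.2 and 102 eRPKM in MycVD tumours, against 12.7, 18.4 and 33.2 eRPKM in Myc tumours. It did not overlap and was 3.49-fold higher (1.80 ± 0.18, adjusted p = 8.1e-08). Thrsp was at 6.08, 19.0 and 42.7 eRPKM in MycVD tumours and 3.01, 4.81 and 14.3 eRPKM in Myc tumours (1.61 ± 0.38, adjusted p = 0.004), Acacb differed by 0.81 ± 0.22 (adjusted p = 0.013) and Scd2 by 0.46 ± 0.12 (adjusted p = 0.0061). The Scd2 share of both desaturases was 66.3% ± 7.66 in MycVD tumours (n = 10), below the 83.5% of Myc tumours.

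Fasn (0.28 ± 0.11, adjusted p = 0.074) and Acly (0.29 ± 0.12, adjusted p = 0.088) did not pass, and both passed as higher with median-ratio scaling (0.34 and 0.35), which made 6 of 11 members higher. Without the libraries with low Gapdh, Acly (0.34) and Acaca (0.29) passed, again giving 6. In the unaltered fit Acaca (0.23), Elovl5 (0.18) and Elovl6 (0.06) did not pass. Pnpla3, at 1.29 ± 0.54 (adjusted p = 0.1; 1.90 with depth as a covariate), and Me1, at 0.35 ± 0.38 (adjusted p = 0.57), had the widest errors of the arm. Me1 ran from 2.06 to 37.6 eRPKM among MycVD IDs. For Pnpla3 the fit shares its spread with control IDs that ran from 0.478 to 34.8 eRPKM. Pnpla3 itself ran from 1.85 to 9.99 eRPKM among MycVD IDs and from 1.20 to 2.38 eRPKM among Myc IDs.

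Myc-off tumours were finally set against control liver to give the distance that remained after 16 h. This comparison shares its libraries with those above. Of 16 tested sterol arm members 11 did not pass, 4 were lower and 1 was higher, with a median log2 difference of 0.05 and of 0.17 over all genes. Of all tested genes 58.3% passed, 20.9% as lower and 37.3% as higher. Hepatocyte markers were lower in 2 of 7 cases, with a median log2 difference of -0.16. Sinusoidal endothelial markers were lower in 4 of 5 cases, stellate and fibroblast markers in 3 of 5 (1 was higher) and Kupffer cell markers in 1 of 5. Bile duct markers were higher in 3 of 5 cases, erythroid markers in 4 of 5, dividing cell markers in 5 of 5, and Fabp4 by 2.08 on the log2 scale. Their part in the result was not tested. The lower members were Tm7sf2 (-0.93 ± 0.22, adjusted p = 0.00064), Ebp (-0.89 ± 0.10, adjusted p = 4.2e-09), Hsd17b7 (-0.75 ± 0.22, adjusted p = 0.0041) and Stard4 (-0.45 ± 0.12, adjusted p = 0.0021). Ebp was the member without overlap (as were 13.7% of all tested genes in the lower direction and 26.4% in the higher one), at 32.2, 48.5 and 46.7 eRPKM in Myc-off animals ID150584, ID151964 and ID153344, against 70.2, 77.9 and 83.8 eRPKM (lowest, median, highest) in control liver. Hsd17b7 was at -0.33 (adjusted p = 0.21) without ID150584, and Stard4 at -0.25 (adjusted p = 0.1) with quantile normalisation. Acat2 was higher by 0.36 ± 0.14 (adjusted p = 0.026), a call lost without ID151964 or ID153344 and with median-ratio scaling.

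Not passing does not show that a gene was back at the control level. Mvd differed by 0.29 with a 95% interval from -0.45 to 1.03, and Mvk by 0.01 with an interval from -0.51 to 0.53. Cyp51 was at -0.31 (interval -0.72 to 0.11) and Lss at 0.51 (adjusted p = 0.064). Lss passed as higher with quantile normalisation (adjusted p = 0.04), with the ceiling correction (0.037), without the libraries with low Gapdh (0.04), without the shallowest Myc-off library (0.027), without control ID125322 or ID128993 (0.038 and 0.028) and without Myc-off ID150584 (0.87, adjusted p = 0.0046). Cyp51 passed as lower with median-ratio scaling (-0.49, adjusted p = 0.035) and without control ID142606 (-0.41, adjusted p = 0.035), and Idi1 with median-ratio scaling (-0.46, adjusted p = 0.038). Under median-ratio scaling the median over all genes moved to -0.01 and that of the sterol arm to -0.13, with 6 members lower and 0 higher; 49.1% of all calls were then higher, against 64.1% in the unscaled fit.

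In the fatty acid arm 7 of 11 members were lower than in control liver, 2 were higher and 2 did not pass, with a median of -0.71. Thrsp stood furthest below (-3.92 ± 0.50, adjusted p = 7.6e-08), with no overlap; it was -3.31 without ID151964, -4.83 without ID153344 and -4.59 with the ceiling correction. Me1 was at 15.3, 27.4 and 14.2 eRPKM in Myc-off animals ID150584, ID151964 and ID153344, against 49.2, 66.0 and 90.0 eRPKM in control liver (-1.77 ± 0.50, adjusted p = 0.0032). Elovl5 was at 52.2, 65.5 and 50.8 eRPKM in the same Myc-off IDs, against 104, 133 and 161 eRPKM in control liver (-1.24 ± 0.11, adjusted p = 4.9e-11), and Scd1 was lower by 1.23 ± 0.24 (adjusted p = 7e-05); none of these overlapped.

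Acacb (-0.91 ± 0.30, adjusted p = 0.0096), Fasn (-0.71 ± 0.14, adjusted p = 9.6e-05) and Elovl6 (-0.54 ± 0.21, adjusted p = 0.031) were lower with overlap. The Acacb call was lost without ID151964, and that of Elovl6 without ID150584 or ID151964, with quantile normalisation and with the ceiling correction. Acaca (-0.30, adjusted p = 0.068) and Acly (-0.10, adjusted p = 0.6) did not pass, although Acaca passed as lower with median-ratio scaling (-0.49, adjusted p = 0.0042) and without any of 3 single control IDs. Scd2 was 23.4-fold higher in Myc-off tumours (4.55 ± 0.15, adjusted p = 4.7e-21). Pnpla3 was higher by 1.97 ± 0.71 (adjusted p = 0.019), a call lost without ID151964 or ID153344. Srebf1 (-0.86 ± 0.10, adjusted p = 2.3e-08) and Insig1 (-0.79 ± 0.17, adjusted p = 0.00017) were still below every control ID, and Srebf2 was higher by 0.51 ± 0.19 (adjusted p = 0.022), a call lost with median-ratio scaling and without ID150584 or ID151964.

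Set side by side as a share of the control mean, the arms lay at different levels. For the sterol arm the median over 16 members was 98.6% in Myc-off tumours, 75.3% in MycVD tumours and 51.7% in Myc tumours. For the fatty acid arm the median over 11 members was 60.0% in Myc-off tumours, 61.5% in MycVD tumours and 38.1% in Myc tumours. In Myc-off tumours 8 of 16 sterol arm members and 2 of 11 fatty acid arm members were above the control mean. In Myc tumours 0 of 16 and 1 of 11 were.

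The same contrast can be read animal by animal. For each ID the median log2 value of each arm was taken against the control mean, and the fatty acid median was subtracted from the sterol median. The result was 0.29, 1.05 and 0.80 in Myc-off animals ID150584, ID151964 and ID153344. It was above 0 in 8 of 10 MycVD IDs (range -0.09 to 0.69), in 7 of 7 Myc IDs (range 0.01 to 0.57) and in 7 of 11 control IDs (range -0.48 to 0.24). The MycVD and Myc IDs overlapped each other over most of their ranges. Since both arms are read from the same library, the difference is not moved by a factor common to all genes of an ID. In the sterol arm alone, Myc-off ID150584 was at -0.37 against 0.21 and 0.23 in the other Myc-off IDs. No test is given for these medians, since the members had been chosen with results of these data known.

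**Figure D4:**
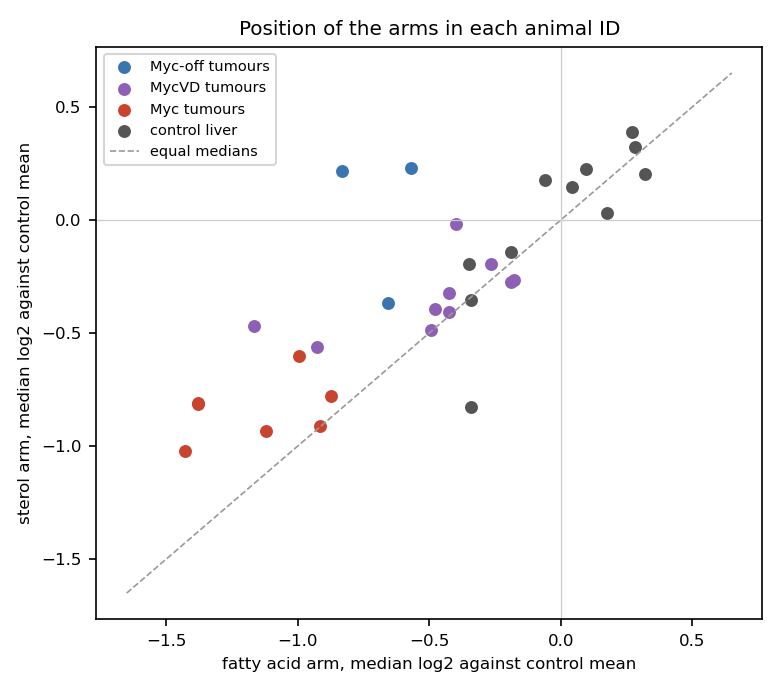
Median log2 difference from the control mean of the sterol arm (vertical) against that of the fatty acid arm (horizontal); each point is 1 animal ID and the dashed line marks equal medians. All 7 Myc IDs lie below -0.60 in the sterol arm, and the 3 Myc-off IDs lie between -0.37 and 0.23 there while between -0.83 and -0.57 in the fatty acid arm.

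Promoter sequence was looked at because so many members of 1 pathway moved in the same direction. RefSeq promoters of build GRCm38.p6, from 250 bases before to 50 bases after the start, were found for 25 of 31 members. The letters CCAAT on either strand, which are the core of the box bound by NF-Y, a known partner of SREBP at sterol genes, occurred in 22 of 25 members: 12 of 13 in the sterol arm, 7 of 9 in the fatty acid arm and 3 of 3 among the regulators. They occurred in 42.6% of 10650 tested genes with a listed promoter, and in 41.1% of all 27025 genes with one. A gene was counted if any of its promoters held the letters. The letters CACGTG, the E-box that Myc with Max is known to bind, occurred in Dhcr7, Elovl5, Hsd17b7 and Insig1 (16.0% of 25), and in 11.4% of tested genes. Hmgcs1 is counted among the promoters. The letters TCACNCCAC, the core of the sterol response element, occurred in Hmgcs1 and in 1.49% of tested genes. A match only describes the letters, and binding was not measured in these libraries.

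The 6 promoters below belong to members described above and show how the letters are placed. They are printed on the strand of the gene, with CCAAT (or its reverse complement ATTGG) and CACGTG in capitals. Insig1 (chr5:28071162-28071461, plus strand) holds an E-box and 1 box far from its start. Cyp51 (chr5:4104648-4104947, minus strand), Tm7sf2 (chr19:6067801-6068100, minus strand) and Mvd (chr8:122443373-122443672, minus strand) have theirs close before the start. Fasn (chr11:120824498-120824797, minus strand) and Thrsp (chr7:97417501-97417800, minus strand), like Mvd, hold boxes on both strands, and in Fasn a forward and a reverse box share letters.
Insig1: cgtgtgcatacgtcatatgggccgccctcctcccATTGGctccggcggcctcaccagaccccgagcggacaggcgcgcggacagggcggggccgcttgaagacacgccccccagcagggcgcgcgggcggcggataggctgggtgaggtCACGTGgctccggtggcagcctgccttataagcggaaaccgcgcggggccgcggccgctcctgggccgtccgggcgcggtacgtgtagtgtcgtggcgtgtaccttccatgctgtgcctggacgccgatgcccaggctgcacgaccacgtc
Cyp51: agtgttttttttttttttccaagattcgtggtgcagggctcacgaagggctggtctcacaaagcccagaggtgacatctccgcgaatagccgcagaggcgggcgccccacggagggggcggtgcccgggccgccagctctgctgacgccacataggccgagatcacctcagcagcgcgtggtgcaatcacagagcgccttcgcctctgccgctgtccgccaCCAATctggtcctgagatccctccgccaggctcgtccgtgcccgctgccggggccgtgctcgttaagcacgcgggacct
Tm7sf2: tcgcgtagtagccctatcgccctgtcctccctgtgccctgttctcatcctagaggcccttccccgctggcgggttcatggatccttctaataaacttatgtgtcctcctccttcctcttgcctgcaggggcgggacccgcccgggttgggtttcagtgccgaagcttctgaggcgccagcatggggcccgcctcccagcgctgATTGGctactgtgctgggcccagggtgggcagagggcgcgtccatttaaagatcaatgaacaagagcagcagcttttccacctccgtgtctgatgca
Mvd: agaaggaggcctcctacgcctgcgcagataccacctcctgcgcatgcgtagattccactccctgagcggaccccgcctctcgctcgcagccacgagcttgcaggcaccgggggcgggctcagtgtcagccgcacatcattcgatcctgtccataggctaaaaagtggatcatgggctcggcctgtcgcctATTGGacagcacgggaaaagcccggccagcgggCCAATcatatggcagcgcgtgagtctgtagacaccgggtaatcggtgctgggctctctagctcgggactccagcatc
Fasn: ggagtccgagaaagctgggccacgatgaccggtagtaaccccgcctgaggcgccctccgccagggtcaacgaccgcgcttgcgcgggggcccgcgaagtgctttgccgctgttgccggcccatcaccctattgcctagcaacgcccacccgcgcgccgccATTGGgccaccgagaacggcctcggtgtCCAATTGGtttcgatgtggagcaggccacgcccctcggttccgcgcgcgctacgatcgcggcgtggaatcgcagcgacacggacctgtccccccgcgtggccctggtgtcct
Thrsp: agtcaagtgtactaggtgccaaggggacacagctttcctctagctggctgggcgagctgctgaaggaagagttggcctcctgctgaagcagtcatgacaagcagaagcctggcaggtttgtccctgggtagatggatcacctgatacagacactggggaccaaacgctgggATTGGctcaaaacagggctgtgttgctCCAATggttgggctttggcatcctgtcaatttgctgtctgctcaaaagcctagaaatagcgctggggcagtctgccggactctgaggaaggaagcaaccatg

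Within groups, 6 pairs of members were compared over animal IDs, in MycVD tumours, Myc tumours and control liver, which makes 18 relations. Permutation p-values were two-sided, exact for Myc tumours and from 100000 resamples otherwise, and were adjusted over the 18 by the Benjamini-Hochberg method. In control liver, Srebf1 and Fasn varied together (Pearson r = 0.90, adjusted permutation p = 0.0086; Spearman rho = 0.86, adjusted p = 0.011). Without the 2 IDs farthest from the median of Srebf1, r was 0.87. Fasn and Sqle, 1 gene of each arm, also varied together in control liver (r = 0.81, adjusted permutation p = 0.021; rho = 0.95, adjusted p = 0.0014; r = 0.82 without 2 IDs). For Srebf2 and Sqle r was 0.79 (adjusted permutation p = 0.021) and rho 0.59 (adjusted p = 0.23).

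In Myc tumours Scd1 and Fasn had r = 0.86 (adjusted exact permutation p = 0.023) and rho = 0.79 (adjusted p = 0.22), and r was 0.66 without 2 IDs. Fasn and Sqle had r = 0.55 (adjusted exact permutation p = 0.28) in Myc tumours and r = 0.05 (adjusted permutation p = 0.91) in MycVD tumours. Without the 2 IDs farthest from the median of Fasn, r was 0.43 in Myc tumours and 0.57 in MycVD tumours. Without the libraries with low Gapdh it was 0.69 and 0.38, so the MycVD value rested on few IDs. No relation passed in MycVD tumours. The difference between groups was not tested, and the tumour groups covered a narrower range of both genes: Sqle spread by 15.7% of its mean in MycVD tumours and 13.96% in Myc tumours, against 44.1% in control liver. The labels give neither the time of day nor the feeding state of the animals.

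**Figure D5:**
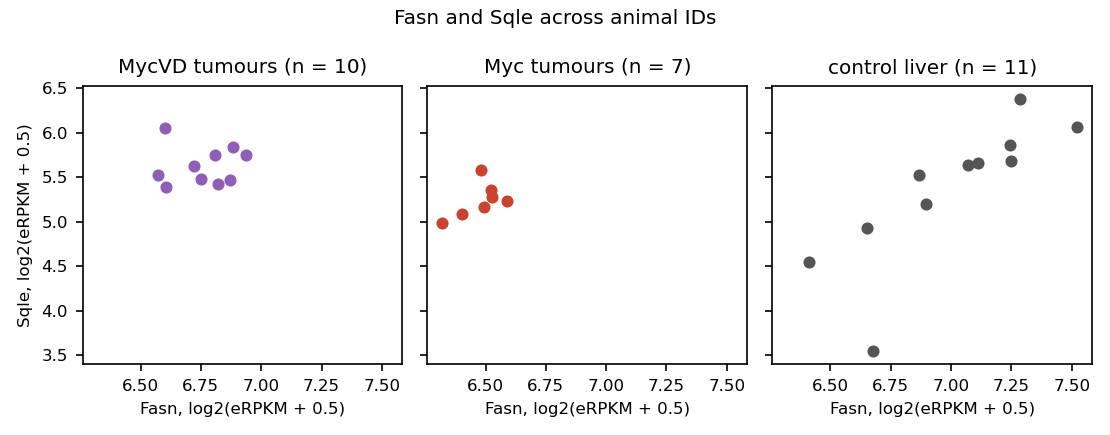
Sqle against Fasn, both as log2(eRPKM + 0.5), in MycVD tumours, Myc tumours and control liver; each point is 1 animal ID. Control IDs spread along a rising line (r = 0.81), and the IDs of both tumour groups form compact clouds.

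Relative spread among control IDs was wide for other members as well. The coefficient of variation in control liver was 121% for Pnpla3, 47.9% for Mvd, 41.0% for Nsdhl, 39.4% for Elovl6 and 39.3% for Acacb, against 5.37% for Ebp and 10.7% for Srebf1. Control ID142606 was lowest in the sterol arm as a whole, at -0.83 on the median log2 scale, while its fatty acid median was -0.34. Control ID128993 was highest, at 0.39.

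A further 26 genes of the same pathways, listed by role with earlier results of these data known, were counted in the same fit. In Myc tumours against control liver 5 were higher and 20 lower, where 50.4% of all tested genes were higher and 29.7% lower. In Myc-off against Myc tumours 15 were higher and 2 lower, against 22.8% and 28.0% of all genes. In MycVD against Myc tumours 8 were higher and 1 lower, against 6.14% and 9.69% of all genes. In Myc-off tumours against control liver 3 were higher and 16 lower, against 37.3% and 20.9% of all genes. Elovl3, an elongase gene of very long chains, averaged 0.067 eRPKM in Myc-off tumours, 1.099 in MycVD tumours and 0.096 in Myc tumours, against 47.3 in control liver. Its difference between MycVD and Myc tumours did not pass (0.32 ± 0.65, adjusted p = 0.78). Acss2, the acetyl-CoA synthetase gene, averaged 3.54 eRPKM in Myc tumours and 28.1 in control liver (-2.76 ± 0.16, adjusted p = 2.9e-16). Soat1, which encodes the enzyme that esterifies cholesterol for storage, averaged 23.9 eRPKM in Myc tumours and 4.1996 in control liver (2.37 ± 0.17, adjusted p = 1.1e-13).

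The sterol enzyme genes Sc5d (1.39 ± 0.14, adjusted p = 2.2e-09) and Msmo1 (1.37 ± 0.22, adjusted p = 3.6e-06), of the lathosterol and methylsterol oxidases, had the largest rises of these genes in Myc-off against Myc tumours. The proteases that release SREBPs from the membrane fell there: Mbtps2 averaged 6.61 eRPKM in Myc-off tumours and 18.4 in Myc tumours (-1.41 ± 0.13, adjusted p = 2.4e-10), and Mbtps1 differed by -0.37 ± 0.12 (adjusted p = 0.014). In Myc tumours Mbtps2 was 1.73 ± 0.09 above control liver (log2, adjusted p = 3.7e-17). Fads1, the delta-5 desaturase gene, led the MycVD rises at 0.69 ± 0.10 (adjusted p = 1.3e-05), and Msmo1 followed at 0.59 ± 0.15 (adjusted p = 0.0091), while Soat1 was lower by 0.53 ± 0.18 (adjusted p = 0.042). Insig2, the second INSIG gene of liver, averaged 33.7 eRPKM in Myc-off tumours and 98.8 in control liver (-1.60 ± 0.23, adjusted p = 7.5e-07), and Ggps1, of the branch to geranylgeranyl groups, was higher there by 0.61 ± 0.16 (adjusted p = 0.0021).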

How the data were processed

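RNA of 46 libraries from FVB mouse liver and liver tumours was sequenced. Ribozero removed ribosomal RNA before library preparation with the TruSeq RNA kit v2, which keeps no strand (per the labels' protocols). The alignment tools TopHat and TopHat2 2.0.8 and the build mm9 come from what the submitters' processing notes list; the tool and annotation used for counting are not stated there. The values deposited by the authors are exonic RPKM (eRPKM) per gene and library. Depth was recovered from steps of whole reads. For 19462 of 21671 genes a length was found that makes every value above 0 whole within 0.001 reads. The lengths were chosen to give whole reads, so this is no check of the recovered depth. No count test was run, since the unit is RPKM.

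The members and all lists were chosen with earlier results of these data known. Tumours with the same animal ID were averaged as eRPKM, and a gene was tested if 3 or more IDs reached 1 eRPKM (14566 tested, 7105 removed). log2(eRPKM + 0.5) of all 4 groups was fitted in 1 model with limma 3.58.1 (R 4.3.3; lmFit and eBayes with trend, two-sided), and p-values were adjusted by Benjamini-Hochberg over all genes tested. A log2 difference on this scale understates the change of low genes. The fit was tested on simulated data in which every group had the control mean and SD of each gene, with changes added in the Myc group. That simulation does not cover groups of unequal spread or the averaging of tumours. Python 3.11.15 with numpy 2.4.6, pandas 2.3.3 and scipy 1.17.1 did the rest. All members were named; of 26 other pathway genes, the 2 largest called rises and the 2 largest called falls of each comparison were.

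Libraries of a group were compared in 258 pairs, and the lowest chi-square per degree of freedom was 3.13, so none was counted as a repeat. P-values measure the spread between animal IDs, which the model pools over all 4 groups. Each comparison thus also carries the spread of groups outside it. No interval for counting error is given for single values. Alternatives were the pseudocount, the filter, median-ratio and quantile scaling, every tumour as its own sample, depth as a covariate and a correction for the inferred read ceiling. Others left out 8 libraries with Gapdh under 30 eRPKM, the shallowest Myc-off library or each animal ID in turn. Leaving out the shallowest library and IDs outside the Myc-off group was chosen after seeing the data. The low-Gapdh libraries were 5 of 16 in Myc tumours, 2 of 11 in MycVD tumours, 1 of 11 in control liver and 0 of 8 in Myc-off tumours. The cause of the low values was not tested. Without these libraries 1590 genes were higher and 2385 lower in MycVD against Myc tumours, against 895 and 1411 in the unaltered fit. The promoter sequences are from RefSeq on GRCm38.p6, a different build from that of the alignment, and no coordinates were converted.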

Additional observations from a re-analysis of the deposited data

Results flagged for a closer look

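Of 60 groups of a member checked, all in MycVD or Myc tumours, 5 held an animal ID far from the rest by Dixon's criterion at the 95% level. Chance alone reaches this in about 1 in 20 groups. Control liver (11 IDs) and Myc-off tumours (3 IDs) were not checked in this way. Lss, the lanosterol synthase gene, was at 27.2 eRPKM in Myc ID128992, with the next highest Myc animal at 22.1. Stard4 was at 72.5 eRPKM in MycVD ID134664, with the next at 57.4. Acly was at 96.8 eRPKM in MycVD ID133079, with the next at 76.3. Elovl5 was at 57.7 eRPKM and Thrsp at 14.3 eRPKM in Myc ID126948, with the next highest Myc animals at 50.6 and 7.20. Without ID126948 the Thrsp difference between Myc-off and Myc tumours was 1.27 on the log2 scale and passed the threshold in limma's fit (adjusted p = 0.043), against 1.06 (adjusted p = 0.097) with it. No explanation was tested for these animals.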

How the results depend on the processing

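No paired analysis was possible because the replicate numbers follow accession order and pair no animals. The number of members called in each arm stayed within 1.5 times the reported number in each comparison under every alternative but 1: with every tumour as its own sample, 8 fatty acid members passed for Myc-off against Myc tumours (4 reported), 7 for MycVD against Myc tumours (4 reported), and 9 sterol members for Myc-off tumours against control liver (5 reported). With single animals left out, sterol counts ranged from 12 to 14 (Myc against control), 8 to 12 (Myc-off against Myc, lowest without Myc-off ID151964), 6 to 8 (MycVD against Myc) and 4 to 6 (Myc-off against control); fatty acid counts ranged from 8 to 10, 4 to 5, 4 to 4 and 6 to 10. Differences that changed sign had not passed the threshold, and the cause was not tested. For Myc against control, Fdft1 was at -0.23 with median-ratio scaling, -0.027 with quantile normalisation, -0.019 without low-Gapdh libraries and -0.046 to 0.061 with animals left out. For Myc-off against Myc, Stard4 was at 0.019 with median-ratio scaling, Elovl6 at 0.071 with depth as a covariate, and Srebf2 at -0.0029 with the ceiling correction and -0.066 to 0.074 with animals left out. For MycVD against Myc, Srebf2 was at 0.027 with median-ratio scaling, 0.0076 with single tumours, 0.17 with depth and -0.076 to 0.016 with animals left out; Stard4 was at -0.059 with quantile normalisation and -0.015 to 0.056 with animals left out, and Mvk at -0.0087 to 0.15. For Myc-off against control, Mvk was at -0.17 with median-ratio scaling, -0.12 with quantile normalisation, -0.081 with single tumours and -0.10 to 0.23 with animals left out; Fdps was at 0.057 with quantile normalisation and -0.37 to 0.11, Nsdhl at -0.088 with median-ratio scaling and -0.095 to 0.40, and Acly at 0.11 with quantile normalisation. Depth was 3.25 to 12.6 M reads per library. The inferred read ceiling, if present, would compress Scd1, Thrsp, Insig1 and Fasn in control liver and Scd2 in tumours.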
